A study of Mus musculus with 24 samples.

Results

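The nuclear-encoded subunits of the mitochondrial respiratory chain and of ATP synthase were followed as 81 genes out of 51912 in the count table. They were chosen by symbol (Ndufa, Ndufb, Ndufc, Ndufs or Ndufv with a number, Sdha to Sdhd, and symbols that begin with Uqcr, Cox4 to Cox8 or Atp5) and by a mean of at least 1 CPM (the count over the summed count of the library, times 1000000) over 24 libraries, a rule that uses no difference between groups. Complex I gave 35 of the genes, complex II 4, complex III 8, complex IV 17 and complex V 17. Pseudogene rows were left out, and so were Cox7b2 (0.314 CPM), Cox8b (0.964 CPM) and Cox8c (0 CPM), the testis or muscle forms of their subunits, which missed the CPM limit. The members just above the limit were Cox7a1 at 1.07 CPM and Cox4i2 at 1.124 CPM. Atp5s and Atp5sl carry the ATP synthase symbol without being subunits of it, and were counted with complex V by their symbol. Atp5sl is known from human cells as a factor that helps to assemble complex I. Ndufa4 and its paralogue Ndufa4l2 were counted with complex IV, where Ndufa4 is found.

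The respiratory chain sits in the inner mitochondrial membrane and moves electrons from nutrients to oxygen. Complex I takes them from NADH, complex II from succinate, complex III hands them on to cytochrome c, and complex IV passes them to oxygen, while ATP synthase (complex V) uses the proton gradient that the others build up. Neurons depend on this route for most of the ATP that their ion pumps and synapses use, and each complex but complex II is put together from subunits of both the nuclear and the mitochondrial genome.

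RNA was sequenced from hippocampus of 12 C57BL/6J mice, offspring of sires treated with nicotine or with saline. The tissue was divided into its ventral and dorsal part, and both parts of each animal were sequenced, which gave 8 groups of 3 libraries: nicotine-sired males, saline-sired males, nicotine-sired females and saline-sired females, each with a ventral and a dorsal library per animal. The offspring's own age and the dose are not given in the labels, which give the 3 animals of each combination of treatment and sex, here A, B and C, a title number of their own and do not say whether it marks a sire or a litter. A shared sire or litter and the treatment group cannot be told apart. P-values therefore measure the spread between these animals. The libraries held 32049770 to 47486547 counts, of which the 81 genes made up 0.928% to 1.14% and the 13 subunits encoded in mitochondrial DNA 6.19% to 10.4%. Summed transcripts of 14 choroid plexus markers ranged from 169 to 7551 CPM (from here on, CPM are scaled by the trimmed mean of M-values, TMM, as well), with 1532 to 7551 CPM in 6 dorsal libraries, 2723 and 2861 CPM in ventral tissue of B and C among the nicotine-sired females, and at most 400.04 CPM elsewhere. The ventral marker Trhr was higher ventrally by 2.75 ± 0.31 on the log2 scale (SE) and the dorsal marker Lct lower by -2.57 ± 0.31, as the labels of the tissue have it.

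Promoters are shown for 4 members on which the results below turn: Ndufa5, which came nearest to the threshold among the treatment comparisons, and Sdha, Uqcrc1 and Atp5b, which were called between the regions with all animals. Nuclear respiratory factor 1 (NRF1) and the ETS factor NRF2 (GABP) are textbook regulators of these genes. Windows of 300 bases, 250 before and 50 after the start, were taken from RefSeq (GRCm38.p6), where 64 of the 81 genes had at least 1 window and 69 windows in all. The sequences run 5′ to 3′ along the strand of the gene, and capitals mark matches on either strand to the NRF1 motif (GCGCA, any base, GCGC) or the ETS motif CCGGAAG. Ndufa5 has a second window in the table, which also holds 1 NRF1 match.
Ndufa5, chr6:24527477-24527776, minus strand: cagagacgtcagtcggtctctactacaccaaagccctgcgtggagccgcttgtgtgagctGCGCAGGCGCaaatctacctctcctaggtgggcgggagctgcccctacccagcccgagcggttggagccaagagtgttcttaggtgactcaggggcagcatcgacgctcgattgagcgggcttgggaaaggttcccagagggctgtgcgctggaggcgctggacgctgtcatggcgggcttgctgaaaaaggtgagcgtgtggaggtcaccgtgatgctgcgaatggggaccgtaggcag
Sdha, chr13:74350191-74350490, minus strand: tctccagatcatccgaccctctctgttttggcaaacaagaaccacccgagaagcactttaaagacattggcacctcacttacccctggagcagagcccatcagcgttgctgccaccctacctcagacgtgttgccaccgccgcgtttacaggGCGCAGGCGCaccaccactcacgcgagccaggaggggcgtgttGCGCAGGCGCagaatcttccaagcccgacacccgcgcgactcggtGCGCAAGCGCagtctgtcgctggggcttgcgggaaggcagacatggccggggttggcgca
Uqcrc1, chr9:108936398-108936697, plus strand: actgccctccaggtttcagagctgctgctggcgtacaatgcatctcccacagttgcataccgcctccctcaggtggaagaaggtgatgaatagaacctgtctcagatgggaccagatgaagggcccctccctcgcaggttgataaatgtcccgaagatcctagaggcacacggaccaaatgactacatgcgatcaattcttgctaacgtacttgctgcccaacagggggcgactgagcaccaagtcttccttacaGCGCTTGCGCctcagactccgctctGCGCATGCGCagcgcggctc
Atp5b, chr10:128083057-128083356, plus strand: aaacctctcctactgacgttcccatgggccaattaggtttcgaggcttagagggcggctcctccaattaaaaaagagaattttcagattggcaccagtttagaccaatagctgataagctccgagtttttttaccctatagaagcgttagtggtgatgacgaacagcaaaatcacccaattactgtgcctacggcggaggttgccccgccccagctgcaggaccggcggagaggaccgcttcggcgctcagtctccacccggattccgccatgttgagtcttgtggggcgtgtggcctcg
The Sdha window holds 3 NRF1 matches, the Uqcrc1 window 2, the Ndufa5 window 1 and the Atp5b window none, and none of the 4 holds the ETS motif. Over the members, 18 of 69 windows (26.1%) held the NRF1 motif, against 4.6% of all 32851 windows in the table. The ETS motif was in 16 member windows (23.2%), against 8.86% of all windows, and both motifs were in 4 member windows (5.8%), against 0.892% of all. Matches of the 2 motifs overlapped in 0 of the member windows. Members also lay head to head with a protein-coding neighbour within 1000 bases more often than genes in general: 19 of 81 did (23.5%), against 6.76% of 22028 protein-coding genes in GENCODE M21. Sdha begins 29 bases from Ccdc127, Ndufa7 begins 10 bases from the ribosomal protein gene Rps28, and Sdhd, the membrane anchor of complex II, begins 98 bases from Timm8b, which serves mitochondrial import. The sets of all windows and of all protein-coding genes were not matched to the members in expression or base content. These matches describe letters and positions, and binding was not measured.

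Levels were taken per exon length, the union of all annotated exons of a gene. A gene with a long union, such as Atp5l (6443 bases) or Ndufb2 (5628 bases), gets a lower level for the same count. On this scale complex IV held both the most and the least abundant members. Cox8a, the widely expressed form of subunit VIII, averaged 1059 ± 103 TPM (counts per exon length, scaled to the same sum in each library; SD over 24 libraries). Cox6a1, the widely expressed form of subunit VIa, averaged 770 ± 64.2 TPM, and Atp5b, the catalytic beta subunit of ATP synthase, 563 ± 40.5 TPM. The 5 lowest members were the tissue- or hypoxia-linked forms of complex IV subunits. Cox4i2, the lung form that low oxygen can raise, stood at 3.09 ± 0.84 TPM, Cox6b2, the testis form, at 3.20 ± 1.40 TPM, and Ndufa4l2, a target of hypoxia-inducible factor, at 4.30 ± 0.83 TPM. Cox7a1 and Cox6a2, the heart and muscle forms, stood at 4.32 ± 1.49 and 12.8 ± 4.63 TPM. The median level was 113 TPM for complex I, 113 TPM for complex II, 152 TPM for complex III and 198 TPM for complex IV. It was 110 TPM for the genes counted with complex V. Those include Atp5s (13.5 TPM) and Atp5sl (23.1 TPM), which are not subunits and lower that median.

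**Figure D1:**
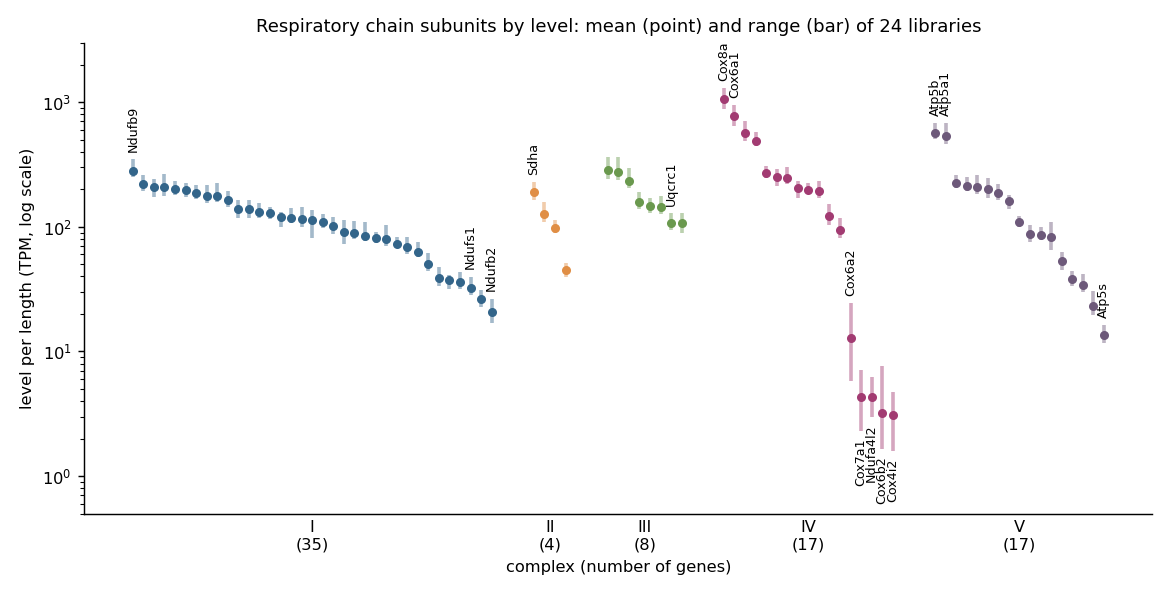
Level per length of the 81 genes (TPM on a log axis), ordered within each complex; points are means and bars the range over 24 libraries. Most genes lie between 20.8 and 285 TPM, Cox8a reaches 1059 TPM, and 4 minor forms of complex IV subunits lie between 3.09 and 4.32 TPM.

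Spread between replicates was small for most members. Among the 76 members at 10 CPM or more, the SD of log2 CPM within a group had a median of 0.10, against 0.11 for all 10036 genes at that level. Sdha, the flavoprotein that oxidises succinate, varied least, with an SD of 0.03 on the log2 scale. The minor forms varied more, from 0.16 for Ndufa4l2 to 0.40 for Cox6a2, on counts as low as 22 to 72 per library. The members also moved together from library to library. In the ventral library of nicotine-sired male A the median member lay -0.22 on the log2 scale from its own mean over the 24 libraries, with 6 of 81 members above their mean. In the ventral library of saline-sired female C the median member lay 0.20 above it, with 74 of 81 above their mean. The same libraries stood apart for other genes: the median of 86 cytosolic ribosomal protein genes was -0.32 in male A and 0.23 in female C, and that of 461 genes with an exon length of at most 1000 bases (no member among them) was -0.23 and 0.16. The part of library composition in the members' values was not tested.

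**Figure D2:**
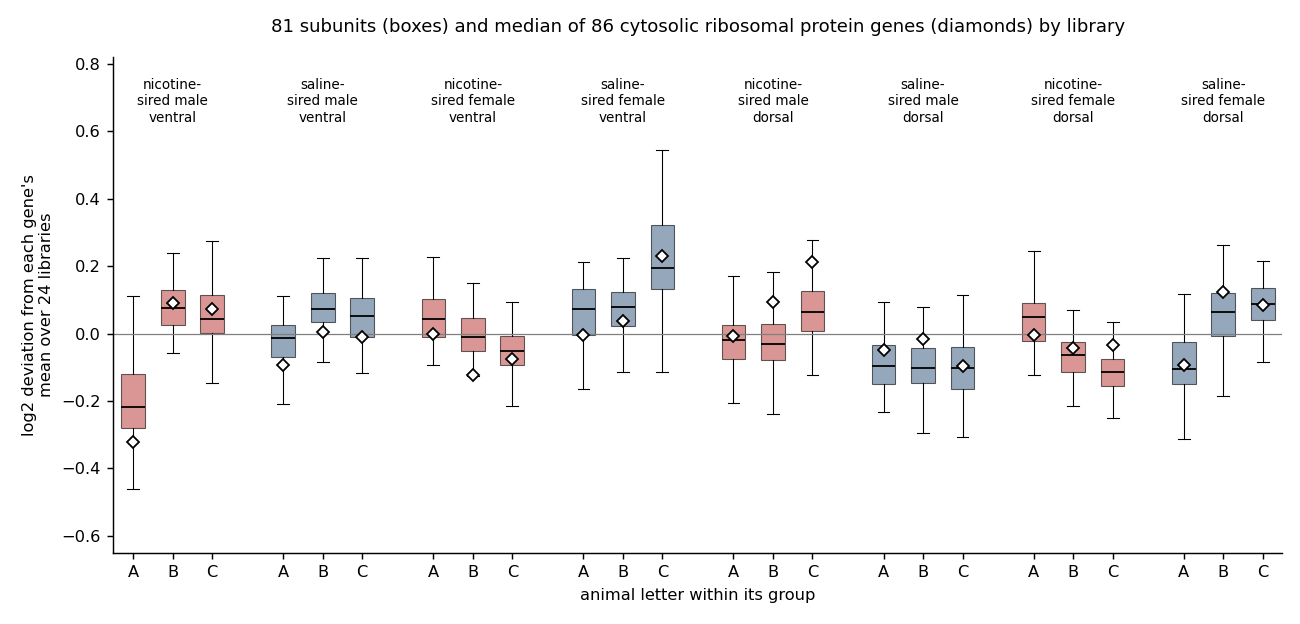
Deviation of log2 CPM from each gene's mean over 24 libraries, by library: boxes span the quartiles of the 81 genes with their median, whiskers reach the last value within 1.5 box lengths, and diamonds are the median of 86 cytosolic ribosomal protein genes. The ventral library of nicotine-sired male A has the lowest box, at -0.22, and that of saline-sired female C the highest, at 0.20.

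The first comparison asked whether the sire's nicotine altered the members in male offspring. In the dorsal hippocampus, no member passed an adjusted p of 0.05 in edgeR's quasi-likelihood test, in which 1.78% of 19130 genes did. DESeq2 called 1 member, Ndufa5, as higher, where it called 297 of 31995 genes higher and 577 lower. Those 31995 are all genes with a count in any dorsal library, with no low-count filter beforehand, and are not the 19130 genes of edgeR. The fold changes (log2, nicotine-sired over saline-sired) were small and leaned upward: 74 of 81 were positive, with a median of 0.10 against 0.00 for all genes tested. At an unadjusted p of 0.05, 13 members were higher and 0 lower (8.06% of all genes were higher). In 31 members all 3 nicotine-sired libraries lay above all 3 saline-sired ones, which 12.6% of all genes showed. The medians by complex were 0.10 for complex I, 0.08 for II, 0.07 for III, 0.14 for IV and 0.09 for V. All 3 dorsal libraries of saline-sired males were low in the members, with medians of -0.10 on the scale of deviations above and 7 to 12 of 81 members over their mean. The nicotine-sired males stood at -0.02, -0.03 and 0.06.

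Ndufa5, an accessory subunit of the arm of complex I that reaches into the matrix, came nearest to the threshold. It had 74.3, 73.1 and 82.6 CPM in nicotine-sired males, against 59.0, 64.9 and 58.9 CPM in saline-sired males, so that the groups did not overlap. The log2 fold change was 0.33 ± 0.08 (SE) with an edgeR adjusted p of 0.0601. Cox6a1 had 260, 271 and 301 CPM in nicotine-sired males, against 228, 245 and 205 CPM in saline-sired males, and its log2 fold change of 0.29 ± 0.11 had an edgeR adjusted p of 0.184. Ndufa4l2 had 2.18, 2.32 and 2.52 CPM in nicotine-sired males, against 2.04, 1.44 and 1.45 CPM in saline-sired males, with a log2 fold change of 0.50 ± 0.18 and an edgeR adjusted p of 0.187. In each of the 3 genes the treatment groups did not overlap, and none of them passed in edgeR. DESeq2 gave Ndufa5 an adjusted p of 0.0117, and edgeR gave 0.0349 without nicotine-sired female A, which shares in the estimate of the spread, and from 0.0505 to 0.225 without any other animal. Without nicotine-sired female A, edgeR called 211 of 19502 genes higher and 413 lower.

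Beside these values, markers of several other cells moved in the dorsal hippocampus of males. The 13 markers of vessel-wall (mural) cells summed to 216, 243 and 242 CPM, against 182, 186 and 197 CPM in saline-sired males, and 3 of the 13 were called higher. All 6 ependymal markers had negative log2 fold changes (median -1.14), as had all 14 choroid plexus markers (median -0.56), while all 5 blood markers had positive ones (median 0.42), with 0 called in each list. The choroid plexus markers summed to 2924, 2570 and 218 CPM in nicotine-sired males, against 7551, 400 and 369 CPM in saline-sired males. Their groups thus overlapped, and saline-sired male A was far above the other saline-sired males. The cytosolic ribosomal protein genes had a median log2 fold change of 0.15 with 0 of 84 called, and 2326 short genes tested had a median of 0.13. Endothelial markers went both ways, with 2 higher and 1 lower of 10. In tissue RNA, more cells of a type and more RNA per cell cannot be told apart, and the part of these differences in the members' values was not tested.

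In the ventral hippocampus of males, edgeR and DESeq2 called no member, where edgeR called 3.21% of 19224 genes. Here the lean was downward: 62 of 81 log2 fold changes were negative, with a median of -0.04 against 0.01 for all genes tested. At an unadjusted p of 0.05, 0 members were higher and 2 lower (7.27% of all genes were lower), and 5 members had all 3 nicotine-sired libraries below all 3 saline-sired ones (11% of all genes). Without nicotine-sired male A, the library that stood lowest, the median turned to 0.04. Without nicotine-sired male B, nicotine-sired male C or saline-sired male A it was -0.10, -0.07 and -0.08, and without saline-sired male B -0.03. The smallest p belonged to Cox5a, a nuclear subunit of cytochrome c oxidase, with 96.9, 118 and 121 CPM in nicotine-sired males, against 122, 132 and 129 CPM in saline-sired males. Its groups did not overlap, by a margin of under 1 CPM, and the log2 fold change of -0.18 ± 0.08 had an edgeR adjusted p of 0.273. Ndufb2, an accessory subunit of complex I, and Uqcrfs1, the Rieske iron-sulfur protein of complex III, followed with -0.18 ± 0.08 and -0.14 ± 0.07 and edgeR adjusted p of 0.292 and 0.336. Without nicotine-sired male A, Cox5a had -0.09 and Uqcrfs1 -0.07. Cell markers differed here as well: 3 of 13 mural, 4 of 10 endothelial, 2 of 7 microglial and 2 of 5 blood markers were called higher and 2 endothelial ones lower, and all 6 ependymal markers had negative log2 fold changes (median -0.72, 0 called). Their part in the members' values was not tested.

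In females, the fold changes leaned downward in both regions, again with no member called by edgeR or DESeq2, where edgeR called 0.0314% of genes dorsally and 0.0312% ventrally. In the dorsal hippocampus 58 of 81 log2 fold changes were negative, with a median of -0.06 against 0.01 for all genes. The median was -0.11 without nicotine-sired female A or saline-sired female A, and -0.02 without nicotine-sired female C or saline-sired female C. At an unadjusted p of 0.05, 3 members were higher and 6 lower (7.2% and 6.12% of all genes), and in 12 members the nicotine-sired libraries all lay below the saline-sired ones (9.97% of all genes). In the ventral hippocampus 71 of 81 were negative, with a median of -0.11 against 0.00 for all genes. There, 2 members were higher and 15 lower at an unadjusted p of 0.05 (7.23% and 6.65% of all genes), and in 31 members the 3 nicotine-sired libraries lay below the 3 saline-sired ones (10.1% of all genes). The ventral medians by complex were -0.12 for complex I, -0.06 for II, -0.14 for III, -0.11 for IV and -0.11 for V.

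Ndufc1, an accessory subunit in the membrane arm of complex I, had the smallest p in the ventral hippocampus of females. It had 35.9, 31.7 and 30.7 CPM in nicotine-sired females, against 38.9, 38.2 and 44.1 CPM in saline-sired females, a log2 fold change of -0.30 ± 0.08 with an edgeR adjusted p of 0.160. Its dorsal values were 32.97, 30.7 and 32.2 CPM in nicotine-sired females, against 34.1, 39.6 and 38.8 CPM in saline-sired females, a log2 fold change of -0.22 ± 0.08 with an edgeR adjusted p of 0.288. Ndufc1 thus kept its groups apart in both regions of females without passing in either. Ndufs7, the core subunit of complex I with the iron-sulfur cluster next to the quinone site, had 70.7, 70.2 and 64.7 CPM in ventral libraries of nicotine-sired females, against 78.9, 81.3 and 90.2 CPM in saline-sired females. Uqcrc1, a core protein of complex III, had 207, 209 and 198 CPM in nicotine-sired females, against 224, 236 and 259 CPM in saline-sired females. Neither gene's groups overlapped, and the log2 fold changes of -0.28 ± 0.08 and -0.23 ± 0.07 had edgeR adjusted p of 0.181 and 0.201. Dorsally the smallest p belonged to Ndufv2, an iron-sulfur subunit of the NADH-oxidising tip of complex I, which ran the other way: 131, 123 and 113 CPM in nicotine-sired females, against 99.0, 103 and 111 CPM in saline-sired females (log2 fold change 0.24 ± 0.08, edgeR adjusted p of 0.245). Atp5k, subunit e in the membrane part of ATP synthase, had 58.51, 51.16 and 50.29 CPM in nicotine-sired females, against 58.53, 64.88 and 65.56 CPM in saline-sired females, so that the groups all but touched (log2 fold change -0.23 ± 0.08, edgeR adjusted p of 0.261).

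Choroid plexus transcripts were abundant in B and C of the nicotine-sired females. The 14 markers summed to 283, 2723 and 2861 CPM in ventral libraries of nicotine-sired females, against 175, 203 and 329 CPM in saline-sired females, and to 345, 7419 and 2752 CPM dorsally, against 260, 210 and 1532 CPM, so that the groups overlapped in both regions. All 14 markers had positive log2 fold changes, with medians of 3.21 ventrally and 2.56 dorsally, and 0 of 14 were called. Once the level of choroid plexus markers entered the fit, the members' median was -0.11 ventrally and -0.03 dorsally. Without nicotine-sired females B and C, which leaves A as the lone library with the spread of the other groups assumed for it, the ventral median was -0.08. The ribosomal protein genes, for comparison, had medians of -0.15 ventrally and -0.06 dorsally.

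**Figure D3:**
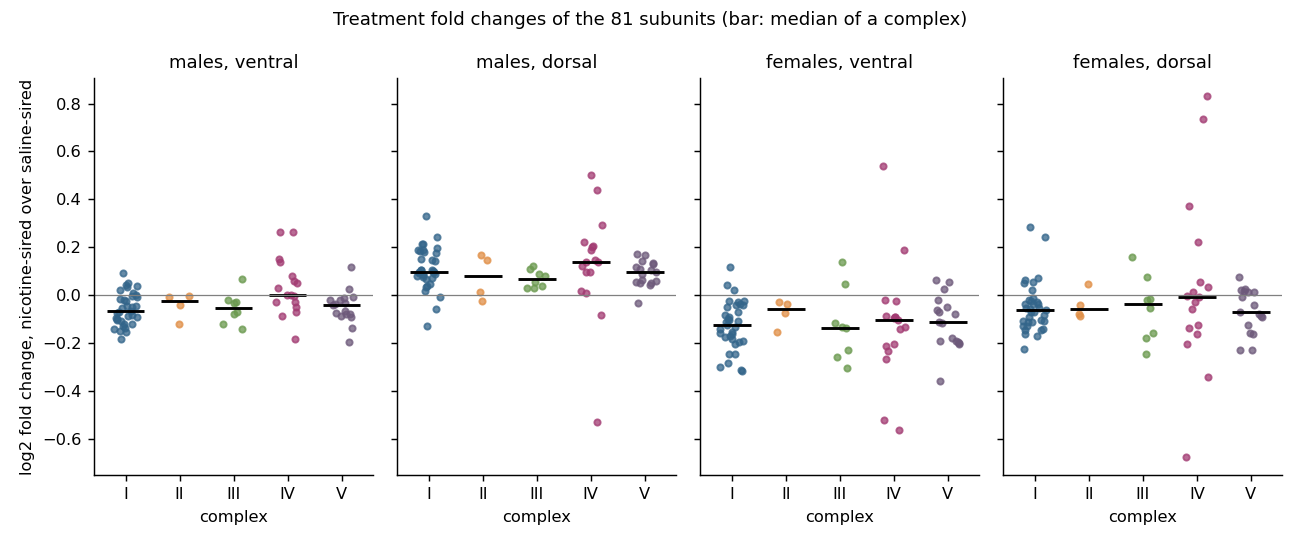
Log2 fold changes of the 81 genes between nicotine-sired and saline-sired offspring, by complex, in each sex and region; every point is a gene and bars are medians. Most points lie above 0 in the dorsal hippocampus of males (74 of 81) and below 0 in the ventral hippocampus of females (71 of 81), and no point had an edgeR adjusted p under 0.05.

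The difference between the sexes was tested as an interaction, the effect in males minus the effect in females. Dorsally no member was called by edgeR, which called 2.24% of 19130 genes. DESeq2 called 1, Cox6c, with a positive difference, where it called 515 of 31995 genes with a positive and 757 with a negative one. At an unadjusted p of 0.05, 19 members had a positive difference and 0 a negative one (9.24% of all genes had a positive one), and 71 of 81 differences were positive, with a median of 0.16 against -0.02 for all genes tested. In the same interaction 10 neuronal markers went both ways, 5 positive and 5 negative, with a median of -0.02. Of them Slc17a7 was called higher (0.62 ± 0.13) and the interneuron markers Gad1 (-0.75 ± 0.17) and Gad2 (-0.83 ± 0.19) lower. All 14 choroid plexus markers (median -3.08) and all 6 ependymal markers (median -2.54) were negative with 0 called. The part of these cells in the members' values was not tested. Cox6c, a nuclear subunit of cytochrome c oxidase, had 159, 158 and 168.5 CPM in nicotine-sired males, against 133, 140 and 148 CPM in saline-sired males. In females it had 156, 140 and 137 CPM in nicotine-sired offspring, against 148, 185 and 169 CPM in saline-sired offspring. The groups of males did not overlap, those of females did, and the difference of 0.41 ± 0.12 had an adjusted p of 0.0877 by edgeR and 0.0349 by DESeq2. Ndufa4l2 followed with 0.85 ± 0.26 and Ndufc1 with 0.37 ± 0.12, at edgeR adjusted p of 0.0987 and 0.106. Without nicotine-sired female A, whose dorsal library was the highest of its group, edgeR called 3 of 81 members: Cox6c (adjusted p = 0.0350), Atp5k (0.0422) and Ndufs6, an accessory subunit of complex I (0.0382). All had positive differences. In that fit 346 of 19502 genes were called with a positive difference and 491 with a negative one.

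Ventrally the interaction called no member either, by edgeR or DESeq2, where edgeR called 1.07% of 19224 genes. At an unadjusted p of 0.05, 2 members had a positive difference and 0 a negative one (7.53% of all genes had a positive one), and the median difference was 0.07 against 0.01 for all genes. Leaving out nicotine-sired male A took it to 0.15, leaving out nicotine-sired male B or saline-sired female C took it to 0.02, and it was 0.04 to 0.05 when C of the nicotine-sired males, C of the nicotine-sired females or A of the saline-sired males was left out. Ndufa4l2 had the smallest p, with 0.82 ± 0.27 and an edgeR adjusted p of 0.168. Its ventral values were 1.73, 2.48 and 2.17 CPM in nicotine-sired males, against 1.82, 1.84 and 1.66 CPM in saline-sired males, and 2.04, 1.78 and 1.96 CPM in nicotine-sired females, against 2.96, 2.22 and 3.35 CPM in saline-sired females. Ndufa4l2 averaged highest in saline-sired females in both regions, and the groups of females did not overlap in either. Ndufa4l2 and Cox4i2 are known as genes of brain pericytes in mice, and Cox4i2 had a difference of 0.67 ± 0.39 ventrally (edgeR adjusted p of 0.465). Mural cell markers, of which 2 of 13 were called in the same interaction in each region, had median differences of 0.27 dorsally and 0.56 ventrally, and their part in the Ndufa4l2 values was not tested. Ndufb9 and Ndufa2, accessory subunits of complex I, came next with 0.34 ± 0.15 and 0.30 ± 0.14 (edgeR adjusted p of 0.309 and 0.368), and without nicotine-sired male A Ndufb9 reached 0.46 ± 0.11 with an edgeR adjusted p of 0.0495. In that fit 215 of 19599 genes were called with a positive difference and 248 with a negative one.

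**Figure D4:**
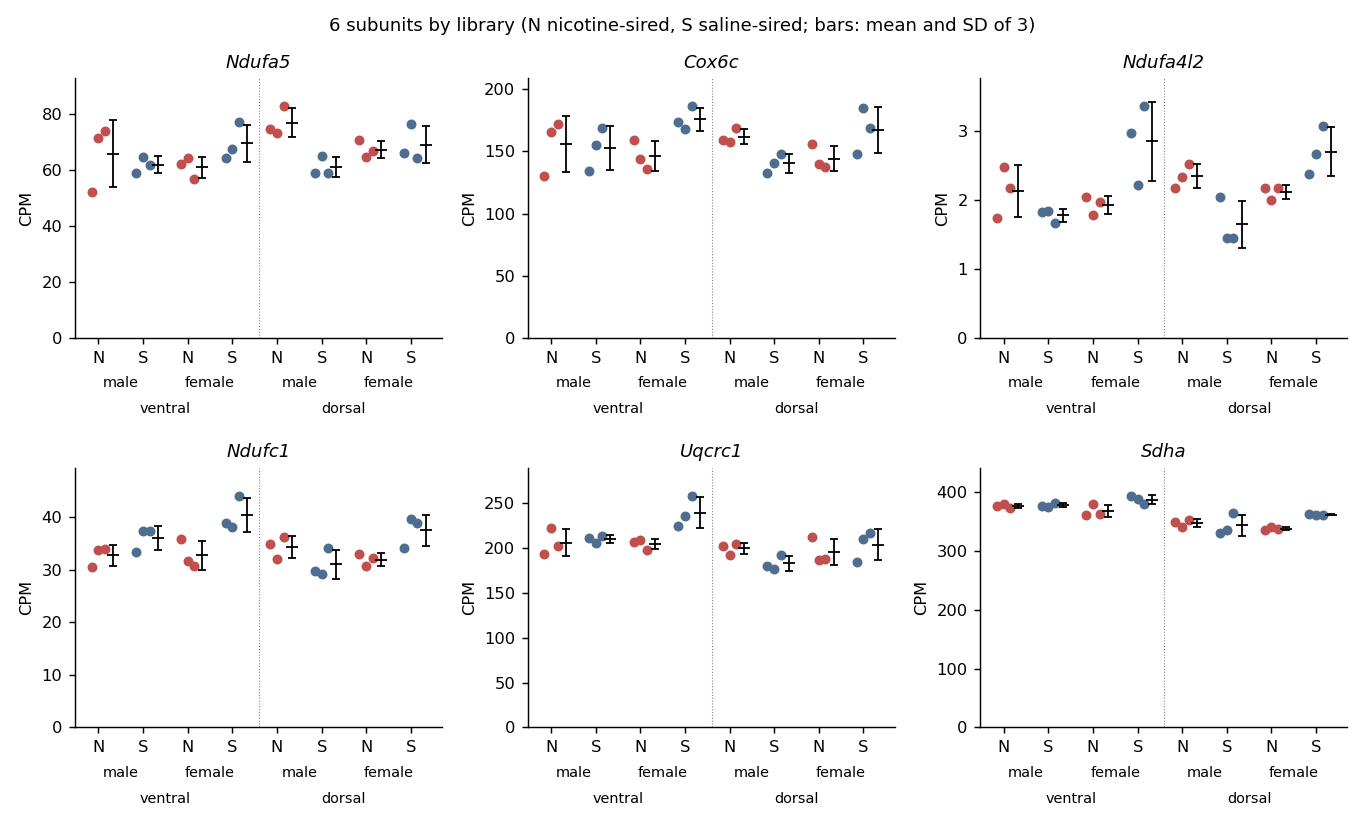
CPM of 6 genes by library (linear axes from 0), with N for nicotine-sired and S for saline-sired offspring, split by sex and region; bars are the mean and SD of 3 animals. Ndufa5 and Ndufa4l2 of dorsal males and Ndufc1 of females show groups that do not overlap, and Sdha is higher ventrally than dorsally in each of the 12 animals.

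The 13 subunits encoded in mitochondrial DNA, which meet these proteins in the same complexes, had another pattern. In males their log2 fold changes were all positive in both regions, with medians of 0.31 dorsally and 0.37 ventrally, where the nuclear members had 0.10 and -0.04. They took 8.85%, 9.88% and 8.79% of the counts in dorsal libraries of nicotine-sired males, against 7.84%, 7.97% and 7.22% in saline-sired males, and the groups did not overlap. Ventrally they took 7.54%, 10.1% and 10.4%, against 8.10%, 8.16% and 6.19%, with overlap. A single call was made, for mt-Nd6 in the ventral hippocampus of males (log2 fold change 1.59 ± 0.22, edgeR adjusted p of 0.00347), a gene on the strand opposite to the other 12, for which the strand setting of the counting matters. In females the medians were 0.09 dorsally and 0.22 ventrally, with no call.

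Other lists of the pathway moved little with the sire's treatment. Of 52 assembly factors, 18 genes of the tricarboxylic acid cycle and 6 further subunits or partners that the symbol rule does not take (such as Cyc1 and Atpif1), none was called in any of the 4 treatment comparisons, and their medians lay between -0.09 and 0.06. Of 24 regulators of mitochondrial biogenesis, Twnk, the mitochondrial DNA helicase, was called lower in ventral males (log2 fold change -0.33 ± 0.08, edgeR adjusted p of 0.0338). Of 21 glycolysis genes, the monocarboxylate carrier Slc16a1 was called higher and the glucose carrier Slc2a1 lower in males of both regions, and both carriers are also abundant in vessels.

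The regions of the hippocampus differed more clearly. Over all animals, 15 of 81 members were higher in the ventral than in the dorsal hippocampus by edgeR and 0 were lower, a share of 18.5% higher where 14.3% of all 19849 genes were higher and 14.9% lower (29.2% in either direction). The share that was higher is thus close to that of all genes, while 71 of 81 log2 fold changes were positive, with a median of 0.07 against -0.01 for all genes tested. The 15 came from every complex, 5 from complex I, 1 from II, 2 from III, 2 from IV and 5 from the genes counted with V. Among the last is Atp5sl, which is not a subunit of ATP synthase. All but Cox6a2 differed by 0.20 or less on the log2 scale. Dorsal and ventral libraries come from the same animals, and with the animal as a block 23 members were higher, the 15 among them, and 0 lower (17.2% of all genes were higher).

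Atp5sl had the smallest p, with a log2 fold change of 0.20 ± 0.04 (edgeR adjusted p of 0.000613). It ranged from 31.2 to 37.4 CPM with a median of 34.8 CPM ventrally, against 25.3 to 34.0 CPM with a median of 29.8 CPM dorsally, and was higher ventrally in 11 of 12 animals. Sdha ranged from 360 to 394 CPM with a median of 378 CPM ventrally, against 331 to 364 CPM with a median of 345 CPM dorsally. It was the 1 member higher ventrally in 12 of 12 animals, and the groups overlapped by a few CPM only (log2 fold change 0.12 ± 0.02, edgeR adjusted p of 0.000879). Uqcrc1 ranged from 194 to 259 CPM with a median of 210 CPM ventrally, against 177 to 217 CPM with a median of 193 CPM dorsally (log2 fold change 0.14 ± 0.04, edgeR adjusted p of 0.00667, higher in 9 of 12 animals). The catalytic subunit Atp5b ranged from 1053 to 1222 CPM ventrally, against 1024 to 1166 CPM dorsally, with a log2 fold change of 0.08 ± 0.03 (edgeR adjusted p of 0.0437, higher in 11 of 12 animals). It stayed under the threshold when nicotine-sired male A or saline-sired male A was left out and lost its call in the other 10 such fits. Its partner Atp5a1, the alpha subunit, had 0.07 ± 0.03 and an edgeR adjusted p of 0.0539, which missed the threshold.

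The other genes that were higher ventrally were Ndufa9, at the joint of the arms of complex I (0.10 ± 0.03), the accessory subunits Ndufa10 (0.09 ± 0.03), Ndufb6 (0.13 ± 0.04) and Ndufc2 (0.10 ± 0.04), and the iron-sulfur subunit Ndufs8 (0.11 ± 0.04). Complex III added Uqcrc2, its other core protein (0.09 ± 0.03), and complex IV the widely expressed Cox6b1 (0.14 ± 0.04) and the muscle form Cox6a2 (0.55 ± 0.17). ATP synthase added Atp5k (0.15 ± 0.05), the stalk subunit Atp5o (0.12 ± 0.04) and the delta subunit Atp5d (0.12 ± 0.04). Their edgeR adjusted p ran from 0.0100 for Ndufa9 to 0.0452 for Ndufs8. Ndufa9 kept its call whichever animal was left out, whereas Ndufc2 and Ndufs8 lost it in 9 of 12 such fits and Atp5d in 8. Ndufa5, the member nearest to a call for the sire's treatment, was higher ventrally in 2 of 12 animals. The strand setting of the counting is not given, so counts of members with exons opposite those of another gene are less certain. Among the genes higher ventrally, these are 257 bases of Ndufb6 exons, 356 of Atp5o exons and a longer stretch of Uqcrc2 exons. Shorter stretches of Cox6a2, Atp5d and Ndufa9 exons lie opposite another gene as well. Among the genes named for the sire's treatment or its difference between the sexes, Cox5a, Cox6c, Ndufb2, Ndufa2, Ndufs6 and Ndufa4l2 have such stretches. Atp5o has a second gene model that shares 243 bases on its own strand. Ndufb2 and Ndufb9 also share exon bases with another gene on their own strand.

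**Figure D5:**
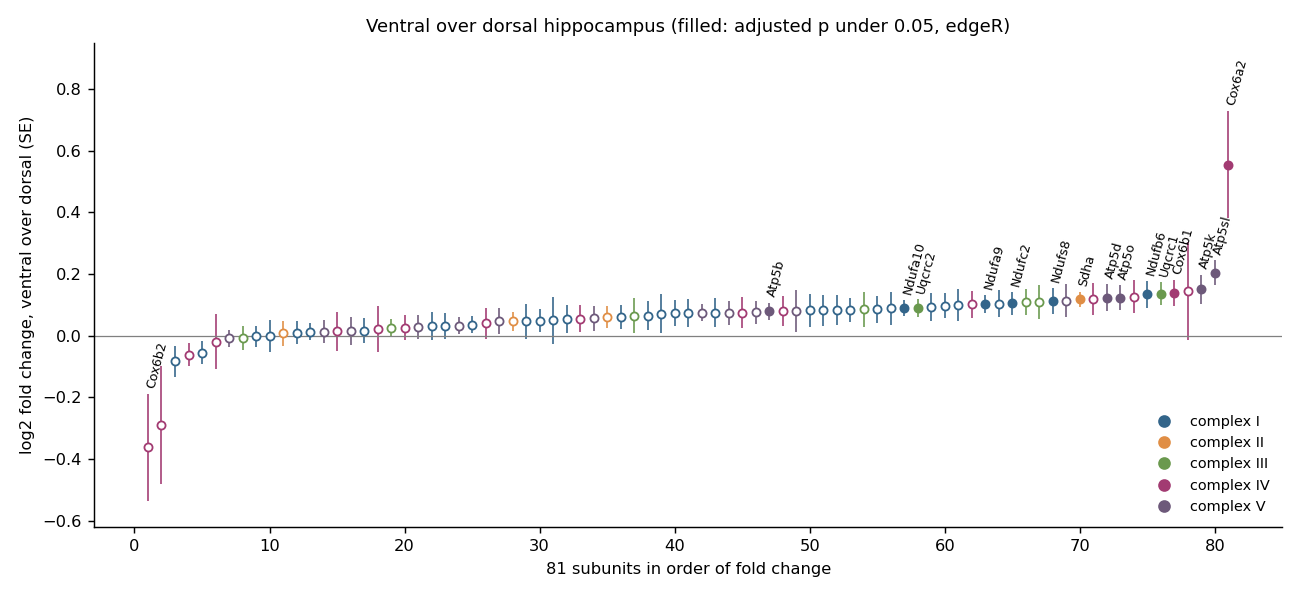
Log2 fold change, ventral over dorsal, of the 81 genes in order of size with SE, coloured by complex; filled points have an edgeR adjusted p under 0.05. The 15 filled points, named, all lie above 0, with Cox6a2 highest at 0.55, and 71 of 81 points are positive.

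Markers of other cells also differed between the regions. Choroid plexus markers were lower ventrally (12 of 14 called, median log2 fold change -1.96), as were oligodendrocyte markers (7 of 7 called, median -0.81) and ependymal markers (5 of 6 called, median -1.0), while neuronal markers went both ways (3 of 10 higher, 3 lower). With that choroid plexus covariate, 5 members were higher ventrally (Atp5o, Atp5sl, Cox6b1, Sdha and Uqcrc1; 12.3% of all genes were). Without the animals of nicotine-sired females B and C, 2 were, Atp5sl and Sdha (8.16% of all genes). Leaving out nicotine-sired male A gave 23 of 81 members, and 2694 of 20124 genes were higher. Leaving out B or C of the nicotine-sired males, or B of the saline-sired males, gave 8 of 81. Of all genes 2534 of 20196, 2561 of 20129 and 2473 of 20139 were higher in those fits. Leaving out B of the nicotine-sired or A of the saline-sired females gave 7 of 81, where 2370 of 20199 and 2268 of 20195 genes were higher. Atp5sl and Sdha were called in each of these fits, and 0 members were called lower in any.

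Other lists of energy metabolism also had more members higher than lower ventrally, where 14.3% of all genes were higher and 14.9% lower. Of 21 glycolysis genes 14 were higher and 1 lower, with a median log2 fold change of 0.16, led by the neuronal glucose carrier Slc2a3 (0.41 ± 0.05) and the enolase Eno1 (0.23 ± 0.03). Of 18 tricarboxylic acid cycle genes 5 were higher and 0 lower (median 0.07), led by citrate synthase Cs (0.16 ± 0.03). Of 52 assembly factors 8 were higher, a share close to that of all genes, and 1 lower (median 0.05). Of the 6 partners outside the symbol rule, 3 were higher, among them Cyc1, cytochrome c1 of complex III (0.17 ± 0.04), and Atpif1, the inhibitor of ATP synthase (0.24 ± 0.05). The regulators of biogenesis were split, 2 higher and 7 lower of 24: the coactivator Ppargc1a was higher (0.36 ± 0.08) and the ETS factor Gabpa lower (-0.25 ± 0.05), although Gabpa and the member Atp5j share 397 bases on opposite strands. None of the 13 mitochondrially encoded subunits was called between the regions (median 0.02), and the ribosomal protein genes had a median of -0.02, with 2 higher and 6 lower of 84.

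Where a subunit exists in several forms, the share of the minor form was compared between the regions within animals, by an exact sign-flip permutation test (two-sided, 8 shares, Benjamini-Hochberg), a test added after the data had been seen. Shares are of levels per length (TPM), so their size depends on the annotated exon lengths. These were 4912 bases for Atp5g1, 1675 for Atp5g2 and 2181 for Atp5g3. The muscle form Cox6a2 made up 1.92 ± 0.39% of the Cox6a1 and Cox6a2 TPM ventrally, against 1.34 ± 0.61% dorsally (SD, n = 12 animals), and was higher ventrally in 11 of 12 animals (exact p = 0.00732, adjusted 0.0488). The exception was nicotine-sired female A, with 2.19% ventrally and 3.03% dorsally, the highest share of the 24 libraries. The testis form Cox6b2 went the other way, with 0.548 ± 0.171% of the Cox6b1 and Cox6b2 TPM ventrally, against 0.774 ± 0.360% dorsally (exact p = 0.0122, adjusted 0.0488), and was higher ventrally in 4 of 12 animals. Without saline-sired male A, which had 0.360% ventrally and 1.613% dorsally, the Cox6b2 difference shrank to -0.133 percentage points, against -0.227 with all animals (adjusted exact p of 0.0977). Both shares passed in 3 of 12 tests that left out an animal, those without nicotine-sired female A, saline-sired male C or saline-sired female C. In edgeR's test of the level itself, Cox6b2 had a log2 fold change of -0.36 ± 0.17 and an adjusted p of 0.126, and so did not pass.

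Other cell markers moved with both of these forms. Of 6 muscle markers tested, 3 were higher ventrally, with a median log2 fold change of 1.16 over the 6. Muscle markers summed to 23.007 to 126 CPM in ventral libraries, against 10.4 to 27.8 CPM in dorsal libraries, with saline-sired female A ventral highest, and without that animal Cox6a2 had 0.47 ± 0.18 and an edgeR adjusted p of 0.072. Cox6a2 also lost its call without nicotine-sired male C, nicotine-sired female C or saline-sired male A, each in turn (0.49 to 0.53). Cox6b2 was at 3.66 CPM, its highest, in the dorsal library of saline-sired male A, which also had the most choroid plexus transcripts. The pattern was not limited to that library. Cox6b2 ranged from 1.671 to 3.66 CPM in the libraries with 1532 CPM or more of choroid plexus markers, and was lower in every other library. Those libraries were all dorsal except the ventral ones of nicotine-sired females B and C. The part of these cells in the shares was not tested.

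The remaining shares did not pass with all animals. Atp5g2, which encodes the same mature subunit c of ATP synthase as Atp5g1 and Atp5g3, made up 26.2 ± 1.14% of the 3 genes' TPM ventrally, against 27.0 ± 1.23% dorsally (adjusted p of 0.0794 by the exact test, higher ventrally in 2 of 12 animals), and passed without saline-sired male C (0.0488) or saline-sired female C (0.0469) in the exact test. Atp5g3, which passed in the first of these 2 tests, made up 57.5 ± 1.08% ventrally, against 56.7 ± 1.45% dorsally, and Atp5g1 16.3 ± 0.99%, against 16.3 ± 0.78%. Cox7a1 took 1.5 ± 0.42% of the Cox7a1 and Cox7a2 TPM ventrally, against 1.96 ± 0.69% dorsally (adjusted p of 0.15 by the exact test). The hypoxia-linked Cox4i2 stood at 0.544 ± 0.097% of the Cox4i1 and Cox4i2 TPM ventrally, against 0.539 ± 0.144% dorsally, and Ndufa4l2 at 1.55 ± 0.34% of its pair, against 1.602 ± 0.31%. The difference in the Cox4i2 share between the regions, 0.005 percentage points with an SD of 0.163 over animals, was far smaller than the spread. Rows for processed copies took reads beside 2 other members: Atp5l2-ps held a count equal to 18.8% of that of Atp5l (range 16.3% to 22.3%) and Atp5k-ps2 10.7% of that of Atp5k, so that the levels of Atp5l and Atp5k depend on how reads that fit both places were counted.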

How the data were processed

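Dorsal and ventral hippocampi were frozen, RNA was extracted with a kit that takes DNA and RNA together, and stranded mRNA libraries were read as 150 bp single ends over 3 HiSeq2500 lanes, per the labels' protocols. Cufflinks, TopHat2 2.1.0, Cuffdiff 2.2.1.3 and the builds GRCm38 and mm10 appear, with no role for any, per the submitters' processing notes. The authors deposited raw read counts per gene with symbols. The counting tool, its strand setting, its annotation and its treatment of reads with several positions were not given in the sources used here.

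Deposited counts were tested with edgeR 4.0.16 in R 4.3.3 (TMM, filterByExpr by group, robust two-sided quasi-likelihood F test, Benjamini-Hochberg over all genes tested, threshold 0.05), each region apart for the sire's treatment and its difference between the sexes, and all 24 libraries together for ventral against dorsal. All 81 members passed the filter in each fit. CPM used TMM-scaled library sizes, deviations log2(CPM + 0.5), and TPM the exon lengths of GENCODE M21. Members, lists and the rule for named genes (those called, up to 15 a direction, or else the 3 smallest p, the highest and lowest levels, paired forms and catalytic subunits) were chosen with earlier results of these data known. Dorsal and ventral libraries of 1 animal pair (deviations from group means, median r 0.26, range -0.13 to 0.70 over 12 animals). Genes called only under an alternative are named after their values were seen. Simulated data tested the ventral fit alone, for males and for the difference between the sexes, with log2 changes of 0.5 and 1. Most members changed by less than that, and the other fits were not simulated. Alternatives were other scaling, no filter, a non-robust fit, DESeq2 1.42.0, blocks, a choroid plexus covariate, the spread of all libraries and leaving out each animal, while the fits without the mitochondrially encoded subunits, without 2 females and the tests of shares (exact sign flips over animals) were chosen after seeing the data. Exon overlaps came from the same annotation. Depth limits the minor forms, some at 22 to 72 counts per library, and counting error is covered by the count model alone.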

Additional observations from a re-analysis of the deposited data

How the results depend on the processing

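For the sire's treatment, no member was called lower in any fit, and calls of higher members appeared in few. In dorsal males 1 member, Ndufa5, was called with no filter, with DESeq2 and with the choroid plexus covariate, and 0 to 1 when each animal was left out. With no filter 101 of 31995 genes were called higher, with DESeq2 297 of 31995 and with the covariate 118 of 19130. In the dorsal difference between the sexes 1 member was called with DESeq2 (Cox6c) and with the spread of all 24 libraries (Ndufa4l2), and 0 to 3 when each animal was left out. Positive differences were called for 515 of 31995 genes with DESeq2 and for 529 of 19849 with the spread of all libraries. In the ventral difference 0 to 1 was called when each animal was left out. Pairing the letters of the titles as a replicate block called 0 members in every treatment comparison, and same-lettered libraries shared little (median r 0.06, 5 of 12 over 0.1). For ventral over dorsal, the 15 members became 23 with the animal block, 5 with the choroid plexus covariate, 2 without nicotine-sired females B and C, and 7 to 23 when each animal was left out, and the cause was not tested. The count stayed between 10 and 22 with other scaling, no filter, a non-robust fit, DESeq2 and without the mitochondrially encoded subunits. With library totals 22 members were higher, and 3055 of 19849 genes. With no filter 10 members were, and 2595 of 34073 genes. In the other fits of this kind 2823 to 2961 genes were higher. Every median over the members kept its sign in these fits, except ventral males without nicotine-sired male A (0.04). Library totals as the scaling moved the median of all genes by -0.06 in dorsal males and that of the members to 0.04. With 3 animals a group, the SE of the members' log2 fold changes in dorsal males ran from 0.06 to 0.44, and was largest for the minor forms with few counts.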
